A study of Homo sapiens with 13 samples.

Results

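The mitochondrial respiratory chain genes were the nuclear protein-coding genes of GENCODE release 44 whose symbols start with NDUFA, NDUFB, NDUFC, NDUFS, NDUFV, SDHA, SDHB, SDHC, SDHD, UQCR, COX4, COX5, COX6, COX7, COX8 or ATP5. The choice used symbols only and no measured value, and it gave 102 genes among 20007 protein-coding genes. By symbol, 39 belonged to complex I, 4 to complex II, 9 to complex III, 17 to complex IV and 19 to complex V (ATP synthase), 8 were complex I assembly factors (NDUFAF), 4 were complex II assembly factors (SDHAF), and 2 were readthrough genes, which join a chain gene to its neighbour. Their chromatin accessibility was compared between H82 and H146, which are human cell lines from small cell lung cancer (SCLC), by ATAC-seq, an assay in which the transposase Tn5 cuts and tags open DNA. H82 represents SCLC-N, the subtype marked by NEUROD1, and H146 represents another subtype, SCLC-A. H82 was profiled in 3 untreated samples and 3 samples given FHD-286 at 100 nM for 14 days, and H146 in 4 untreated samples and 3 given the same exposure. FHD-286 blocks the ATPases SMARCA4 and SMARCA2, the motors of the SWI/SNF chromatin remodelers, and all samples of both lines are labelled wild type. The deposited data were 1 atlas per line, a list of accessible regions on hg38 pooled over all its samples, so untreated and FHD-286 samples could not be compared, and each line stands as a single model of its subtype.

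The respiratory chain sits in the inner mitochondrial membrane. Complexes I and II pass electrons from NADH and succinate to ubiquinone, complex III passes them to cytochrome c, complex IV (cytochrome c oxidase) gives them to oxygen, and complex V uses the resulting proton gradient to make ATP. Most subunits are used in every tissue and are encoded in the nucleus, but several complex IV subunits come in pairs, with 1 isoform expressed widely and another expressed mainly in muscle, testis or lung.

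An accessible region carried no height, read count or sample, so depth was unknown, no spread between samples could be given, and no test was made. Values of the lines are set side by side, with the same value over all 20007 genes. The atlases held 206927 regions for H82 and 174093 for H146, and they shared exact edges, so they may not be fully separate call sets. In all, 19180 regions had the same first and last base in both, which is 9.27% of H82 and 11% of H146 regions. Among 113588 pairs of regions that overlapped only each other, 34514 (30.4%) began at the same base, against 176 and 363 pairs that began 1 base apart on either side. The reason for these shared edges was not tested, and counts of members with shared edges are given below. Among neuroendocrine markers, 6 of 7 had a region at the TSS in both lines. NEUROD1 had one in H82 only, of 7865 bp.

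Accessible chromatin at the start of respiratory chain genes was shared by the lines for nearly the whole set. A gene counted as having a region when at least 1 bp of it fell in the 1 kb to either side of its transcription start site (TSS), taken as the 5′ end of the gene. Both lines had such a region at 92 of 102 genes (90.2%), against a background of 75.4% of all protein-coding genes. Neither line had one at 7 genes (6.86%, background 17.7%). COX7A1 and NDUFAF1 had a region in H82 only (background 5.09%), and COX6A2 was the 1 gene with a region in H146 only (background 1.86%). Cytosolic ribosomal protein genes, another set used in every cell, had a region in both lines at 91 of 99 genes (91.9%).

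Of the 10 genes without a region in both lines, 6 belonged to complex IV. A region was present in both lines for 38 of 39 complex I genes, 4 of 4 complex II genes, 8 of 9 complex III genes and 18 of 19 complex V genes, but for 11 of 17 complex IV genes. The complex IV genes left were COX6A2 and COX7A1, with a region in 1 line, and COX7A2, COX7A2L, COX7B2 and COX8C, with none. NDUFB2, a complex I accessory subunit, UQCRHL, a copy of the complex III hinge protein gene UQCRH, and ATP5MGL, a copy of the ATP synthase subunit g gene, completed the list of genes without a region in either line. All 4 complex II assembly factors and 7 of 8 complex I assembly factors had a region in both lines.

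For 4 of these genes the absence depended on which start was used. COX7A2, the widely expressed partner of the muscle subunit COX7A1, had regions of 2377 bp in H82 and 1358 bp in H146 over other annotated starts, with edges 4741 and 5784 bp into the gene. COX7A2L, which helps to join complexes III and IV into supercomplexes, had 2012 bp in H82 and 1498 bp in H146 at its RefSeq start, which lies 63871 bp from the 5′ end used here. NDUFB2 had 2393 bp in H82 and 1751 bp in H146 at a RefSeq start 5931 bp downstream. NDUFAF1, an assembly factor of complex I, had 2018 bp in H82 and 983 bp in H146 at a RefSeq start 6907 bp downstream, and the 813 bp H82 region that met the rule at its 5′ end also covered the TSS of RTF1. At the RefSeq starts, known here for 82 members, 79 had a region in both lines and 1, COX6A2, in H146 only, while COX7B2 and COX8C had none. All RefSeq starts of a gene were used for this, which can only raise the count over that at a single RefSeq start. At the 5′ end, 75 of the same members had a region in both lines.

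The other genes without a region kept none, or a small one, at any start. UQCRHL had its nearest regions 2412 bp away in H82 and 5566 bp away in H146, and an H82 region of 221 bp lay at another of its transcript starts. ATP5MGL had its nearest regions 4096 bp away in H82 and 7912 bp away in H146. COX7B2, a testis isoform, was the most isolated, with the nearest region 18.9 kb away in H82 and 19.3 kb away in H146.

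Tissue-specific isoform genes were listed as open in fewer cases than their widely expressed partners. Of 7 isoform genes, 3 had a region at the TSS in both lines (COX4I2, COX6B2 and NDUFA4L2), 1 in H82 only (COX7A1), 1 in H146 only (COX6A2) and 2 in neither (COX7B2 and COX8C). Of 7 partners, 6 had a region in both lines, and COX7A2 had one in both lines at its other starts.

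COX6A2 encodes the heart and skeletal muscle form of subunit VIa. In H146 a region of 1022 bp ran from 53 bp before its TSS (chromosome 16, position 31428360) to 968 bp after it, and a further region of 505 bp lay upstream, partly within the window. In H82 neither was present, and the nearest region, of 522 bp, lay 2193 bp upstream, where H146 also had a region, of 608 bp. Its partner COX6A1, the form used in most tissues, was open in both lines, with 1176 bp in H82 and 2663 bp in H146.

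COX7A1, the heart and muscle form of subunit VIIa, had a narrow region of 258 bp in H82 that began 716 bp inside the gene and did not reach the TSS. H146 had nothing within 1 kb, and its nearest region, of 200 bp, lay 6487 bp away. Upstream of COX7A1, within 10 kb, H82 had regions of 1178 and 1542 bp that overlapped none in H146. COX8C, a testis form of subunit VIII, had no region in either line within 1 kb, and the nearest lay 3073 bp away in H82 and 3005 bp away in H146. Its partner COX8A had 1332 bp in H82 and 1219 bp in H146.

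Of the 3 isoform genes open in both lines, NDUFA4L2 and COX6B2 had wider regions than their partners in both, and COX4I2 in H82. NDUFA4L2, a gene known to be induced by hypoxia, lay in 9815 bp of accessible chromatin in H82 and 11036 bp in H146. Its partner NDUFA4, a subunit now assigned to complex IV despite its name, had 1833 bp in H82 and 2042 bp in H146. COX6B2, the testis form of subunit VIb, had 4815 bp in H82 and 4209 bp in H146, while its partner COX6B1 had 915 bp and 1013 bp. COX4I2, the form of subunit IV that is abundant in lung, had 1808 bp in H82 and 1277 bp in H146. Its partner COX4I1 had 1544 bp in both atlases, with identical edges, starting 299 bp inside the gene and covering the TSS of EMC8. COX7B, partner of COX7B2, had 1068 bp in H82 and 1082 bp in H146.

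**Figure D1:**
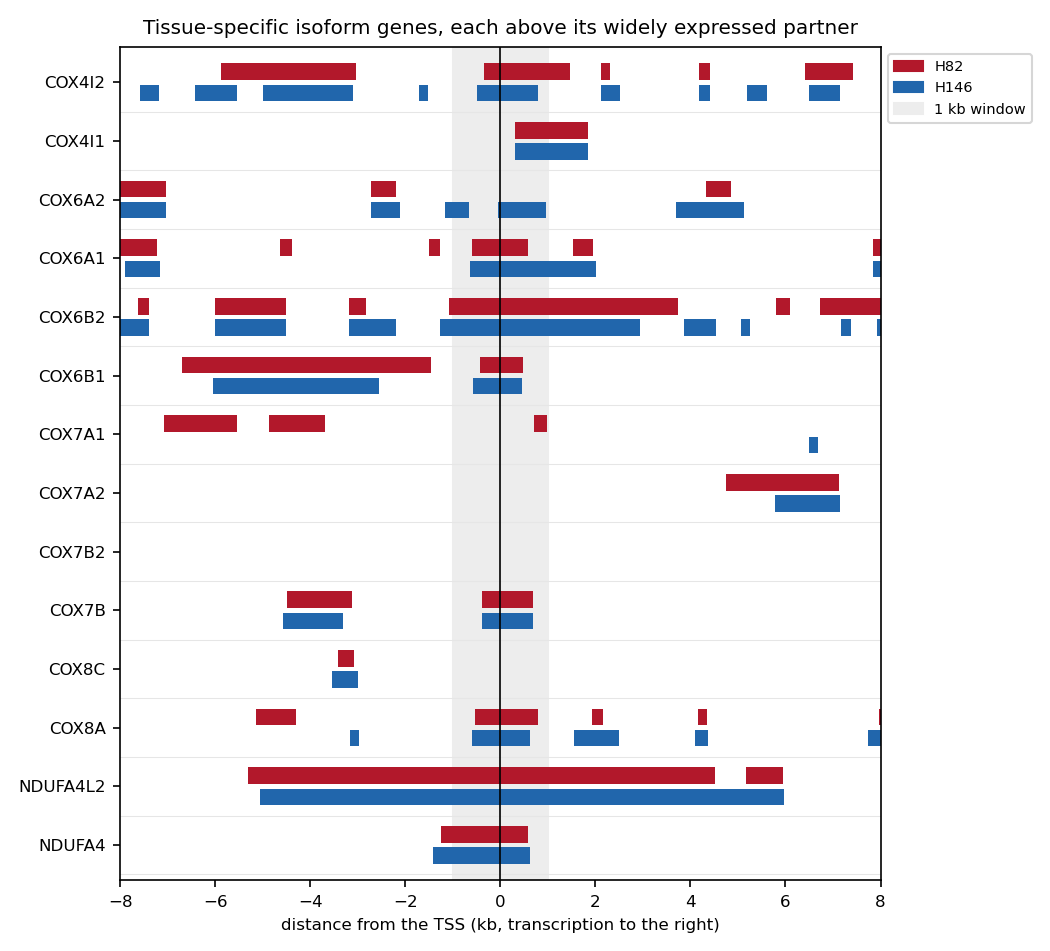
Accessible regions of H82 (red) and H146 (blue) around the TSS of 7 tissue-specific isoform genes, each drawn above its widely expressed partner; the x axis is the distance from the TSS in kb, with transcription to the right, and grey marks the window of 1 kb to either side. A bar is a region of the atlas, drawn to scale and cut at the plot's edge. COX6A2 has a bar at the TSS in H146 only, COX7A1 a 258 bp bar in H82 only, and COX7B2 none in either line.

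Promoter sequences of 3 pairs are shown because each pair sets a tissue-specific gene against its partner over the same window, and because 2 of these isoform genes lacked an H82 region. They run 5′ to 3′ along the gene from 250 bases before to 50 bases after the RefSeq start (GRCh38.p14), and capitals mark the words searched below. The COX6A2 window is chr16:31428311-31428610 on the minus strand and the COX6A1 window is chr12:120437863-120438162 on the plus strand.

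COX6A2: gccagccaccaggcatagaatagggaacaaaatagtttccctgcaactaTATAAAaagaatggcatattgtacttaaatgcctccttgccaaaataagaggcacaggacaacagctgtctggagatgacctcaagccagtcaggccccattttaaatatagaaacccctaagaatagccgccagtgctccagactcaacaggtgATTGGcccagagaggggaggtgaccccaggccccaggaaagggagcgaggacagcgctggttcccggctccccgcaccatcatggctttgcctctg
COX6A1: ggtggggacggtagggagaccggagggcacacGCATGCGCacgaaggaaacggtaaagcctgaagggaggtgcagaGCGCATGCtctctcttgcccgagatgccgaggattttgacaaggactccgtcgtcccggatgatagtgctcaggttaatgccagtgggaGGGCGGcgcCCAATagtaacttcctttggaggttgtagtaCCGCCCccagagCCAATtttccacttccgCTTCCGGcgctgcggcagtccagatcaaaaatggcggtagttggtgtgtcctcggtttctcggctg

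COX6A2 had 52% GC and an observed over expected CpG ratio of 0.247, against 58.7% and 0.868 for COX6A1. H146 regions covered 103 of the 300 bases of COX6A2 and H82 regions 0, while both lines covered all 300 of COX6A1. The COX6A2 window held TATAAA 201 bases before the start, far from where a TATA box usually lies, and an inverted CCAAT word 46 bases before it. The COX6A1 window held the word of NRF1, a main activator of nuclear respiratory genes, at 218 and 174 bases before the start, and the ETS word 16 bases before it.

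The COX6B2 window is chr19:55354670-55354969 on the minus strand, and the COX6B1 window is chr19:35648073-35648372 on the plus strand.

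COX6B2: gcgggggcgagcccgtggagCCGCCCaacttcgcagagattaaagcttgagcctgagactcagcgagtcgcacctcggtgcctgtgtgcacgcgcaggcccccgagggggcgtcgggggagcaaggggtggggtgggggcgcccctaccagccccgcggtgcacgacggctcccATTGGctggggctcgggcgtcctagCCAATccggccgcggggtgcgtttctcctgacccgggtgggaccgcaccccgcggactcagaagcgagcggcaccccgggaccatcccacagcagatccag
COX6B1: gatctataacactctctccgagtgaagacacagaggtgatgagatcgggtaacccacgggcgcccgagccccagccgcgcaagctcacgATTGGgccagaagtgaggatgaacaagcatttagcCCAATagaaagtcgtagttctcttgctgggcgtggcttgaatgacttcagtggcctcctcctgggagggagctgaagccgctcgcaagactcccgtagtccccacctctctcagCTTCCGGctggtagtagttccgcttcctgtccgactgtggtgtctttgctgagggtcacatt

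COX6B2 was the isoform gene of these 3 pairs with a region in both lines, and its window had 72% GC and a CpG ratio of 0.799. COX6B1 had 56.7% GC and a ratio of 0.664. Both windows were covered over all 300 bases in both lines. The ETS word stood 12 bases before the start of COX6B1 and was not found in COX6B2.

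The COX8C window is chr14:93346932-93347231 and the COX8A window is chr11:63974370-63974669, both on the plus strand.

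COX8C: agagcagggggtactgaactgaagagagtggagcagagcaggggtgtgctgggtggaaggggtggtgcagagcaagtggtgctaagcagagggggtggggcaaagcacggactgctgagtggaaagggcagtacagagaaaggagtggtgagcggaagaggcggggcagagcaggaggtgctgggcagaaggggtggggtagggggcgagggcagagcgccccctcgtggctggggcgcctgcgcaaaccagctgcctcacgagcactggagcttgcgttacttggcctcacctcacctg
COX8A: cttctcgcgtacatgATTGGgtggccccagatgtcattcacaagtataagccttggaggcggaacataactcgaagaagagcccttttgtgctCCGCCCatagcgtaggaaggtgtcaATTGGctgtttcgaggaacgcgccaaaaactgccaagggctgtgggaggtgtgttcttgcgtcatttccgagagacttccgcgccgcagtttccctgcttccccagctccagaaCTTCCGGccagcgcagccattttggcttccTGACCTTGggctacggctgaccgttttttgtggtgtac

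COX8C had 64.3% GC but a CpG ratio of 0.383, none of the 7 words searched, and 0 bases covered in either line. COX8A had a ratio of 0.793, with 300 bases covered in both lines. Its ETS word lay 18 bases before the start, and an inverted word of ESRRA, a nuclear receptor that activates mitochondrial genes, began 12 bases after it. No letters of the NRF1, ETS or YY1 words were found for any of the 4 isoform genes with a RefSeq promoter, and among 6 partners ETS was found for 4, NRF1 for 1 and YY1 for 0. Over all promoters the shares were 4.25% for NRF1, 14.4% for ETS and 3.97% for YY1, so that 0 of 4 does not set the isoform genes apart.

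Where both lines had a region, its width was much alike. Width is the span in bp of the region nearest to the TSS, and since regions within 500 bp of each other had been merged, 1 region can hold several open sites. The medians and ranges in this paragraph are over all members with a region in the line named, also those without one in the other line. The median was 1365.5 bp in H82 (quartiles 1140 and 1923, range 258 to 15038, n = 94) and 1341 bp in H146 (quartiles 1134 and 1798, range 529 to 11036, n = 93). Both were below the medians of all genes, 1767.5 bp and 1699 bp. Respiratory chain regions reached a median of 598 bp before and 797 bp after the TSS in H82, and 589 and 732 bp in H146. For all genes these were 709 and 1014 bp in H82, and 680 and 989 bp in H146. The TSS itself was covered at 89 of 94 genes in H82 (94.7%, all genes 89.8%) and 87 of 93 in H146 (93.5%, all genes 90.1%).

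The median log2 ratio of width, H82 over H146, was -0.02 (quartiles -0.16 and 0.25) over the 92 genes, and -0.01 over all genes with a region in both lines. The region was wider in H82 at 37 genes (40.2%), narrower at 50 (54.3%) and equal at 5 (5.43%), close to the shares over all genes of 43.8%, 52.2% and 4%. It was at least 1.5 times as wide in H82 at 10 genes (10.9%, background 13.1%) and at least 1.5 times as wide in H146 at 4 (4.35%, background 7.18%). The remaining 78 lay between these limits. First and last base were the same in both atlases at 5 genes (5.43%, background 3.93%), namely COX4I1, ATP5F1B, NDUFAF6, NDUFAF8 and ATP5MJ, which are also the genes of equal width. Exactly 1 edge was shared at another 19 (20.7%, background 23%).

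**Figure D2:**
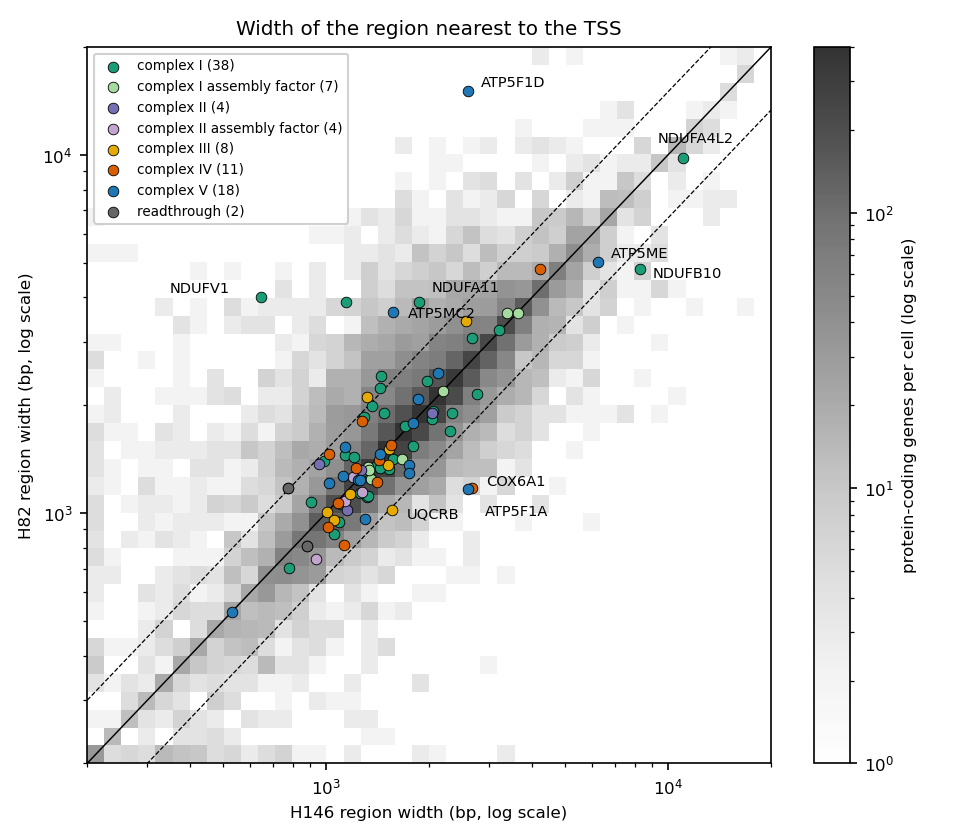
Width in bp of the region nearest to the TSS in H82 (y axis) against H146 (x axis), both on log scales, for the 92 respiratory chain genes with a region in both lines, colored by complex; the numbers in the legend count genes. Grey squares count all protein-coding genes, the solid line marks equal width, and the dashed lines mark 1.5-fold differences. Most points lie between the dashed lines, and ATP5F1D and NDUFV1 lie far above them.

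By complex, the median widths of the lines lay close together. Complex I genes had a median of 1613 bp in H82 and 1421.5 bp in H146 (38 genes), with 16 wider and 22 narrower in H82. The 4 complex II genes, which encode succinate dehydrogenase, had 1343.5 bp and 1207.5 bp. SDHB, the iron-sulfur subunit, was 1.43 times as wide in H82, and the other complex II genes differed less. Complex III genes had 1245 bp in H82 and 1415 bp in H146 (8 genes), with 2 wider and 6 narrower in H82. Complex IV genes had 1277 bp and 1248 bp (12 genes in each line, not all the same genes). Of the 11 complex IV genes with a region in both lines, 4 were wider in H82, 6 narrower and 1 equal. Complex V genes had 1328.5 bp and 1503.5 bp (18 genes). Compared gene by gene, 9 of these were wider in H82, 7 narrower and 2 equal, with a median log2 ratio of 0.02. Ratios of assembly factors stayed near 1, and none of the 7 NDUFAF and 4 SDHAF genes with a region in both lines reached a ratio of 1.5 in either direction. The NDUFAF ratios ran from 0.849 to 1.07 and the SDHAF ratios from 0.794 to 1.05. The readthrough genes ATP5MF-PTCD1 and NDUFC2-KCTD14 have the regions of ATP5MF and NDUFC2 and add no data of their own, so the members lay in 92 distinct regions in H82 and 91 in H146.

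The largest ratios came from genes where H82 had 1 long region and H146 a shorter or divided one. NDUFV1 encodes the subunit of complex I that binds NADH and FMN. Its H82 region measured 4018 bp across the TSS, against 645 bp in H146, a ratio of 6.23. The H146 atlas had a further region there, and the pair lay to either side of the TSS, the nearer ending 183 bp short of it. The right-hand edge of that further region stood 1904 bp after the TSS, the same base as in H82, so the ratio counts a division of the H146 signal as well as its extent.

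ATP5F1D, the delta subunit in the central stalk of ATP synthase, lay in 15038 bp of continuous H82 region, against 2599 bp in H146 (ratio 5.79). The left edges were 2128 and 2137 bp before the TSS, and the H82 region ran on past the TSS of the neighbour MIDN. Over the same stretch H146 had 4 separate regions, the one at the TSS included.

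ATP5MC2, which encodes the c subunit of the rotating membrane ring, had 3651 bp in H82 and 1572 bp in H146 (ratio 2.32). Both regions ended 1809 bp after the TSS, but the H146 region began 238 bp after it. NDUFA11, an accessory complex I subunit, had 3878 bp in H82 and 1873 bp in H146 (ratio 2.07), and both covered the TSS. At NDUFV1 and ATP5MC2 the 5′ end used as TSS was thus covered in H82 and not in H146. Their RefSeq starts lay 1283 and 1325 bp downstream, where both lines had a region. For NDUFV1 the regions there measured 4018 bp in H82 and 1415 bp in H146, and for ATP5MC2 they were the regions given above. Further genes past 1.5, named after their values were seen, included NDUFS1, UQCR11, NDUFA13 and ATP5MF with its readthrough gene, with ratios from 1.52 to 1.67.

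In the opposite direction the differences were smaller. COX6A1 had 1176 bp in H82 and 2663 bp in H146 (ratio 0.442), and here H82 was the divided line, with a separate region of 414 bp inside the stretch that H146 covered. ATP5F1A, the catalytic-head subunit alpha of ATP synthase, had 1170 bp in H82 and 2606 bp in H146 (ratio 0.449), and its regions also covered the TSS of the head-to-head neighbour HAUS1. NDUFB10, an accessory subunit of complex I, had 4788 bp in H82 and 8277 bp in H146 (ratio 0.578), with the H146 region also covering the TSS of RPS2. The H82 atlas had a separate region of 1727 bp within that span. UQCRB, a complex III subunit near the ubiquinone site, had 1019 bp and 1563 bp (ratio 0.652). COX7C had 816 bp and 1126 bp (ratio 0.725).

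**Figure D3:**
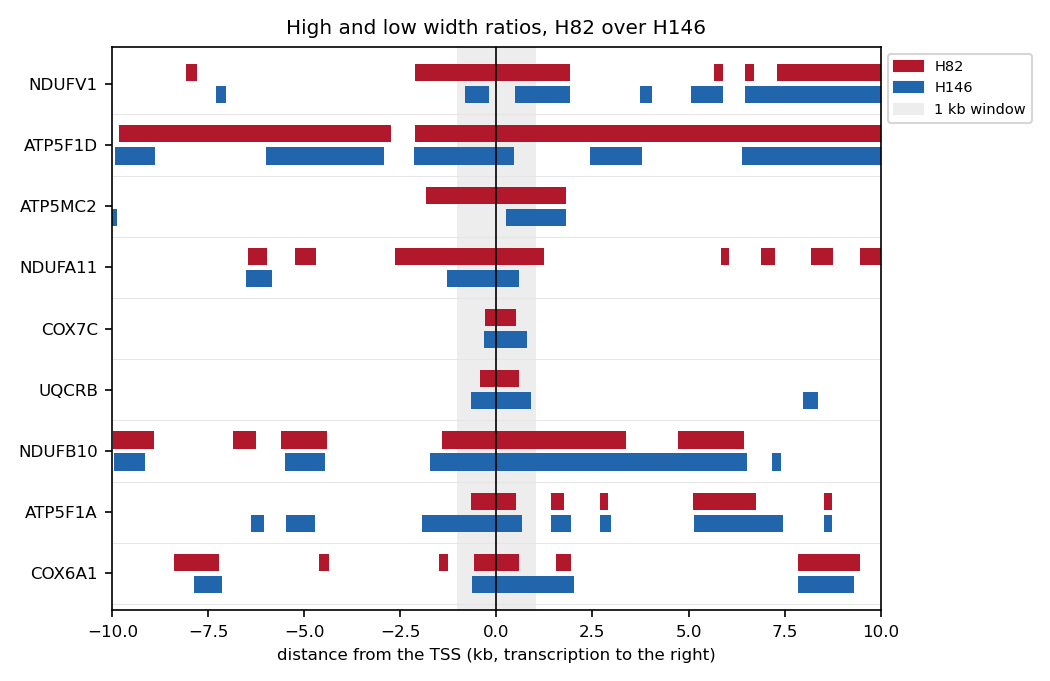
Accessible regions of H82 (red) and H146 (blue) around the TSS of respiratory chain genes with high and low width ratios, highest at the top; the x axis is the distance from the TSS in kb, with transcription to the right, and grey marks the 1 kb window. Bars are regions, drawn to scale and cut at the plot's edge. At NDUFV1 the 4018 bp H82 region spans 2 H146 regions, and at COX6A1 the 2663 bp H146 region spans 2 H82 regions.

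NDUFA4L2 and ATP5ME were among the 3 widest in both lines, and ATP5MJ among the 3 narrowest. ATP5F1D (15038 bp), NDUFA4L2 (9815 bp) and ATP5ME (5015 bp) were widest in H82, and NDUFA4L2 (11036 bp), NDUFB10 (8277 bp) and ATP5ME (6244 bp) were widest in H146. ATP5ME encodes subunit e of ATP synthase, which takes part in its dimerization, and its regions ended at the same base in both atlases, 662 bp after the TSS. The narrowest in H82 were COX7A1 (258 bp), ATP5MJ (529 bp) and NDUFS4 (702 bp). ATP5MJ, which encodes a small ATP synthase subunit, had the identical 529 bp region in H146, ending 94 bp before the TSS. That region covered the TSS of the neighbour TDRD9, and a further region lay inside the window in both lines. At a RefSeq start 6740 bp downstream, ATP5MJ had 1300 bp in H82 and 1332 bp in H146. NDUFV1 (645 bp) and ATP5MF (773 bp) were the other narrowest genes in H146, and NDUFS4, an accessory subunit of complex I, had 780 bp there.

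Width ratios were compared between chromosomes on which the atlases differed most in their number of regions. Chromosomes 1, 15 and 21 had the highest numbers of regions in H82 relative to H146, at 1.47, 1.80 and 1.88 times, and chromosomes 8, 10 and 18 the lowest, at 0.931, 0.953 and 0.789 times. All 11 respiratory chain genes on the former 3 were wider in H82, with a median ratio of 1.34, against 1.09 for all genes there. Of the 9 genes on the latter 3, 8 were narrower in H82 and 1 was equal, with a median ratio of 0.842 against 0.941 for all genes there. ATP5PF, ATP5PO and NDUFV3 were the genes on chromosome 21, with ratios of 1.16, 1.19 and 1.44. NDUFV2 and ATP5F1A were those on chromosome 18, with 0.736 and 0.449. Other chromosomes did not follow this order: chromosomes X, 7 and 14 had 1.42, 1.33 and 1.31 times as many regions in H82, but the medians of their 3, 5 and 2 respiratory chain genes were 0.987, 0.996 and 0.918. The chromosomes were chosen by their region counts, which come from the same atlases as the widths. Shares of all genes there that were wider or narrower are not given, so these counts do not set the members apart. After the median log2 ratio of all genes on the same chromosome was subtracted, the median of the 92 genes was -0.03, with 40 above 0 and 51 below. Then 8 genes were at least 1.5-fold above their chromosome and 3 at least 1.5-fold below. The same counts over all genes are not given, so no lean of the members can be read from these.

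Chromosome 19, singled out after the values were seen, carried 12 respiratory chain genes with a region in both lines, more than any other. Of these, 9 were wider in H82 and 3 narrower, with a median ratio of 1.29. All genes on chromosome 19 had a median of 0.985, and the share of them wider in H82 is not given. ATP5F1D, NDUFA11, UQCR11, NDUFA13 and NDUFS7 led this group, with ratios of 5.79, 2.07, 1.61, 1.55 and 1.46. The region count of the chromosome was 1.16 times as high in H82.

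**Figure D4:**
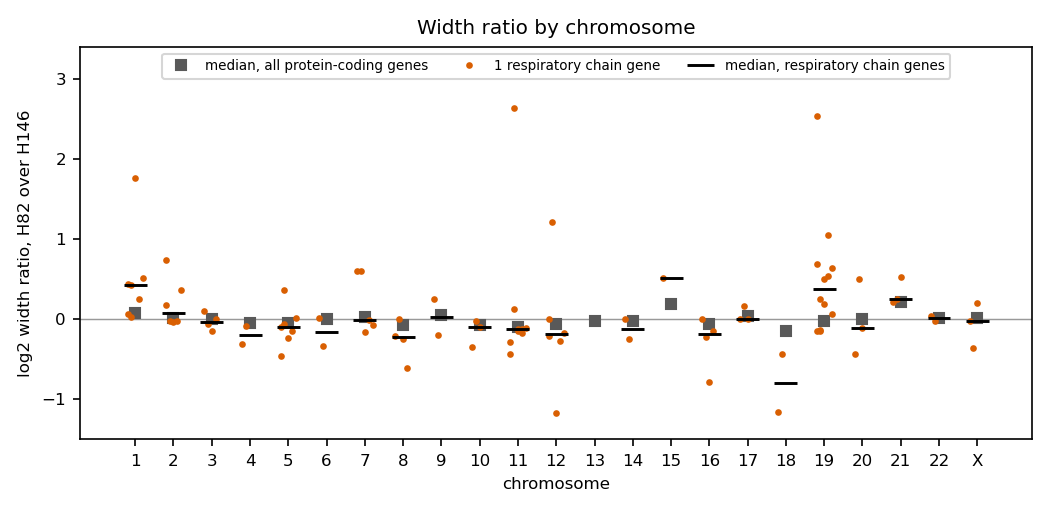
Log2 ratio of region width, H82 over H146, by chromosome. Each orange point is 1 respiratory chain gene with a region in both lines, short black lines are their medians, and grey squares are medians of all protein-coding genes on the chromosome. All points on chromosomes 1, 15 and 21 lie above 0, and none on chromosomes 8, 10 and 18 does.

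Many respiratory chain genes shared their promoter with a neighbour, which limits what a region can be assigned to. Another protein-coding TSS lay within 1 kb for 44 of 102 genes (43.1%), against 17.4% of all genes. The neighbours counted include readthrough genes, the only one for NDUFC2, and genes without a symbol, the only one for UQCR11. A head-to-head arrangement, with the neighbour transcribed away from the opposite strand, was found for 25 genes (24.5%, all genes 8.54%). Any other TSS within 1 kb was present for 19 of 39 complex I genes and 3 of 17 complex IV genes, and a head-to-head one for 11 and 1 of them. Examples are NDUFS1 with EEF1B2, NDUFAF2 with ERCC8, ATP5F1C with KIN, and SDHD with TIMM8B, a gene of mitochondrial protein import. ATP5PF lay in a region that also covered the TSS of GABPA, an ETS factor known to activate respiratory chain genes, of 2462 bp in H82 and 2123 bp in H146.

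Beyond the promoter, regions found in 1 line made up similar shares for respiratory chain genes and for all genes. Regions were counted once for each gene they lay near, so those of ATP5MF, for example, count again for its readthrough gene. Within 10 kb of the TSS and outside the 1 kb window, the members had 207 H82 regions, of which 79 (38.2%) overlapped no H146 region, against 40.5% for all genes. They had 170 H146 regions, of which 47 (27.6%) overlapped no H82 region, against 25.7% for all genes. The median was 1 such region per gene in each line, and 2 in H82 and 1 in H146 for all genes. None was present for 26 genes in H82 (25.5%, all genes 24.1%) and 28 in H146 (27.5%, all genes 30.9%).

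A few genes differed widely there and were picked for this after their values were seen. UQCR11, a small complex III subunit, had 8 such regions in H82 and 0 in H146. COX5B, a zinc-binding subunit of complex IV, had 4 in H82 and 0 in H146, with promoter regions of 1409 bp and 1428 bp that were nearly the same width. NDUFA11 and NDUFS7 each had 6 in H82 and 1 in H146. COX4I2 had more in H146, with 9 against 5 in H82, and all 5 of the H82 regions overlapped one in H146. ATP5F1D had 1 in H82 and 4 in H146, and 2 of these H146 regions lay wholly or partly inside the 15038 bp H82 promoter region.

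The promoters of respiratory chain genes shared sequence features that the choice of members had not used. RefSeq promoters of 300 bases were matched for 82 of 102 members and 15343 of all genes. The members had a median GC of 61%, against 63% for all genes, but a higher median CpG ratio, 0.844 against 0.767. The ratio was at least 0.6 in 74 members (90.2%), against 66.5% of all genes. Ribosomal protein genes were higher still, with a median ratio of 0.889 and 96.3% at or above 0.6. Words were searched as exact letters on both strands, and a match is a description of letters, not of a bound site.

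The NRF1 word GCATGCGC was present in 16 members (19.5%), against 4.25% of all promoters and 4.94% of those of ribosomal protein genes. The genes were SDHB, SDHD and SDHAF2 of complex II and its assembly, COX5B and COX6A1 of complex IV, NDUFA6, NDUFA8, NDUFB4, NDUFS6, NDUFS7, NDUFAF4 and NDUFAF5 of complex I and its assembly, and ATP5F1C, ATP5MC2, ATP5ME and ATP5PF of complex V. The ETS word CCGGAAG was present in 23 members (28%), against 14.4% of all promoters and 29.6% of ribosomal ones, so that here both housekeeping sets were alike. The YY1 word AAGATGGC was present in 11 members (13.4%), against 3.97% and 9.88%. The ESRRA word CAAGGTCA was present in 4 (4.88%), namely NDUFA5, COX8A, SDHD and ATP5MG, against 1.05% and 0%. The NDUFA5 match came from a RefSeq start far from the 5′ end of the gene, in chr7:123601602-123601901. It lay outside the regions at that 5′ end, chr7:123557125-123558424 in H82 and chr7:123557125-123558429 in H146.

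The more common words did not stand apart in the members. The SP word GGGCGG was found in 59.8% of members and 59.2% of all promoters, the NFY word CCAAT in 34.1% and 36.6%, and the TATA word TATAAA in 8.54% and 9.63%. Among the 75 matched members with a region in both lines, the NRF1 word was present in 21.3%, against 4.91% of all promoters of such genes, and the ETS word in 30.7%, against 17.4%. All 16 members with the NRF1 word and all 23 with the ETS word had a region in both lines, as did 91.5% of all matched members. Over all promoters, 88.8% of genes with the NRF1 word and 93% of those with the ETS word had one in both lines. Words were read at a RefSeq start and regions at the 5′ end of the gene. These can be different places, 13738 bp apart for NDUFS3, which had the ETS word.

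**Figure D5:**
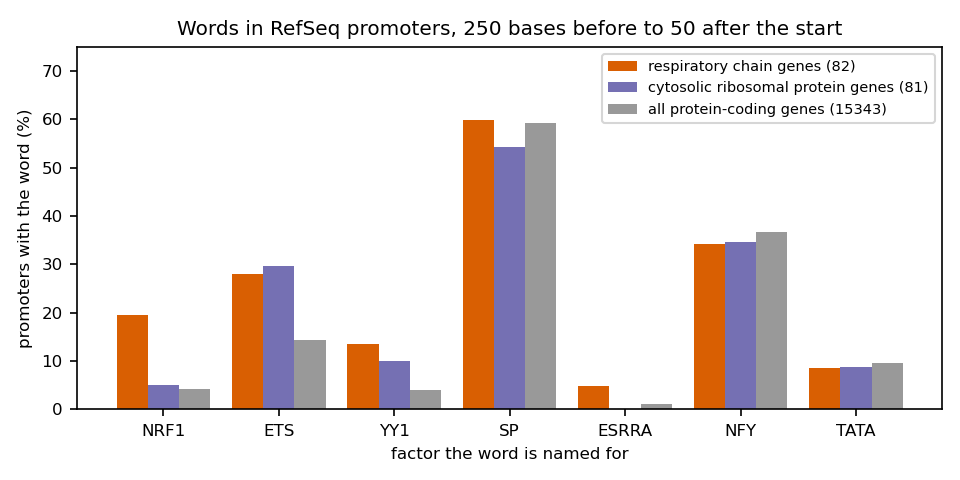
Percent of RefSeq promoters with an exact match to each of 7 words on either strand, from 250 bases before to 50 after the start, for respiratory chain genes, cytosolic ribosomal protein genes and all protein-coding genes; the numbers in the legend are promoters matched. The NRF1 bar of the respiratory chain genes is at 19.5%, against 4.94% and 4.25%, while the SP bars lie between 54.3% and 59.8%.

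Other genes of the pathway were likewise open in both lines. Of 30 assembly factors and electron carriers outside the symbol rule, 28 (93.3%) had a region in both lines and 2 in neither. The 2 were ATPAF1, a chaperone of the ATP synthase head, and NUBPL, which delivers iron-sulfur clusters to complex I. Only the 5′ end of each gene was used for these lists, and the nearest regions of ATPAF1 lay 5027 bp away in H82 and 5093 bp in H146. The median width of the 28 genes' regions was 1813.5 bp in H82 and 1838 bp in H146. Of 15 regulators of mitochondrial genes, 13 had a region in both lines, among them NRF1 (2045 bp in H82 and 2183 bp in H146), YY1 (3016 bp and 2986 bp) and TFAM, the packaging factor of mitochondrial DNA (1371 bp and 1701 bp). EPAS1, which encodes the hypoxia factor HIF-2 alpha, had a region in H146 only, of 456 bp and 443 bp from the TSS. The nearest H82 region lay 2728 bp away, and other starts of EPAS1 are not given here. ESRRG, an estrogen-related receptor, had none in either line. PPARGC1A, the coactivator that drives mitochondrial biogenesis, had narrow regions of 200 bp in H82 and 385 bp in H146.

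Markers of the tissues in which the isoform genes are normally used were checked in the same way. Of 6 striated muscle genes, 4 had a region in both lines (66.7%), against 75.4% of all protein-coding genes, so this does not set the muscle genes apart. MYH7 had a region in H82 only, and MB, the myoglobin gene, in neither. At ACTA1, counted among the 4, the region lay 166 bp from the TSS in H82 and 625 bp in H146. Of 6 testis germ cell genes, 0 had a region in both lines, AKAP4 had one in H82 only (497 bp), TNP1 one in H146 only (323 bp), and 4 had none. Of the fibroblast and endothelial genes, COL1A1 and PECAM1 had a region in both lines and the other 3 of the 5 had none. Whether cells of other types played a part was not tested.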

How the data were processed

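ATAC-seq was performed on H82 and H146 cells, untreated or given FHD-286. The authors trimmed reads with Trim Galore 0.4.4, aligned them to hg38 with Bowtie2 2.3.4, removed reads of the same start and orientation with Picard, used MACS2 to call regions per sample, discarded those on the blacklist, and joined regions of a line's samples within 500 bp. The deposited values are the start and end positions of the merged regions in bp, with no count or score. Depth was unknown. No column with values of single samples had to be left out (0 found). Whether read ends were shifted for the Tn5 cut is not given in the sources used here. An atlas gains regions with each library added, and the lines differ in their number of libraries. In H146, the study's methods place 3 controls in one sequencing batch and 1 control with the treated samples in another.

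Regions were compared with GENCODE release 44 on hg38, chromosomes 1 to 22, X and Y, in Python 3.11.15 with numpy 2.4.6. A gene had a region when at least 1 bp lay within 1 kb of its 5′ end. Width was that of the region nearest to the TSS. The scripts were tested on simulated regions. With 1 atlas per line no test was made. The genes named were the isoform genes and their partners, genes with a region in 1 line or neither, the 5 highest and 5 lowest width ratios, and the 3 widest and 3 narrowest per line, and other genes are said to have been picked afterwards. Some genes these rules or lists name are not reported here. Pathway, regulator and marker lists and the 7 words were fixed lists, and the members and lists were chosen with earlier results of these data known. RefSeq promoter sequences (GRCh38.p14) used the first start listed, which can lie far from the 5′ end of the gene. Regions at RefSeq starts were sought at all RefSeq starts of a gene. Alternatives were a region over the TSS base, a window of 5 kb, all transcript starts, regions of at least 500 bp, the widest region, covered bases, genes without a neighbouring TSS and a fold of 2, with RefSeq starts and regions without shared edges added after the data were seen.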

Additional observations from a re-analysis of the deposited data

How the results depend on the processing

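No paired analysis was possible because each line gave 1 pooled atlas without samples. The number of respiratory chain genes with a region in both lines was 92, and between 79 (of 82 with a RefSeq start) and 96 under the alternatives. With a window of 5 kb, 6 genes had a region in H82 only (ATP5MGL, COX7A1, COX7A2, NDUFAF1, NDUFB2 and UQCRHL) in place of 2, and 0 in H146 only in place of 1. Shares over all genes are not given for the alternatives, so these counts show no lean particular to the members. With regions of at least 500 bp, the genes with a region in H82 only fell to 1, NDUFAF1, and at RefSeq starts to 0. COX6A2 stayed the gene with a region in H146 only under the other alternatives for presence. When the region had to cover the TSS base, the genes open in H82 only numbered 3, and COX7A1 and NDUFAF1 were not among them.

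The counts of genes at least 1.5 times as wide in H82 and in H146, 10 and 4, became 6 and 1 with covered bases of the window in place of width, 4 and 2 among the 49 genes without another TSS within 1 kb, and 5 and 2 with a fold of 2. They were 8 and 4 among the 68 genes whose regions shared no edge between the atlases. The fold of 2 and the smaller sets lower these counts by construction. For covered bases the cause was not tested. Here too, shares over all genes under the same settings are not given. The median log2 ratio stayed between -0.02 and -0.001. Depth and the number of libraries behind each atlas limit every absence, since a region that is not listed may have been below the calling threshold.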

Other observations

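The mitochondrial chromosome, which encodes the other 13 protein subunits of the chain, was listed as 1 region from base 1 to base 16569 in both atlases, which is its whole length. No presence, width or difference can therefore be read for MT-ND1, MT-CO1, MT-CYB, MT-ATP6 or the other genes there.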
